A study of Mus musculus with 768 samples.

Results

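Transcripts of 5 genes were followed in single natural killer (NK) cells from mouse tumors. They encode the antibody receptor of NK cells, a natural cytotoxicity receptor and signalling adaptors of these or other NK receptors. The genes were Ncr1 (NKp46), Fcgr3 (CD16), Tyrobp (DAP12), Hcst (DAP10) and Fcer1g (the common Fc receptor gamma chain). They were taken by symbol from 24490 gene entries, and all 5 had an entry of their own on both plates. NK cells with the surface marker NK1.1 and without CD3 or GR1 were sorted from MTAP1A tumors and sequenced with SMART-SEQ2. MTAP1A is a fibrosarcoma line without TAP1, a transporter needed for MHC class I at the cell surface. The hosts were male, WT C57BL/6 mice and PD-1-/- mice on the same background, which lack the PD-1 protein in all cells, and no further allele or treatment is given for either group beyond the tumor.

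Each genotype was a pool of the tumors of 3 mice, sorted into the wells of 1 plate. The cells of a plate are therefore not replicates of the genotype, each genotype counts as 1 sample, and genotype and plate cannot be told apart. No test between genotypes was possible, and intervals below are exact binomial (Clopper-Pearson) 95% intervals that cover counting error only, in PCR reads without molecular identifiers. A limit given beside a count of 0 is the share that 3 cells would make. Wells with 1000 to 3500 genes above 0 were kept, among 14761 genes above 0 in at least 3 wells, which left 726 cells, 360 of them WT and the rest PD-1-/-. A gene was called present in a cell when its RPKM, the read count scaled to transcript length and to the mapped reads of the cell, was above 0.

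NKp46 and CD16 carry short tails with no signal of their own. They hand it on through Fcer1g and, for NKp46, also through Cd247 (the CD3 zeta chain). The immunoreceptor tyrosine-based activation motif, or ITAM, of these adaptors is phosphorylated by kinases such as Lck and then binds Syk or Zap70. Tyrobp carries the same kind of motif for other NK receptors, while Hcst carries a different tyrosine motif that binds the PI3-kinase subunit Pik3r1 and serves the receptor NKG2D (Klrk1).

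The coding bases behind the motifs are shown because they separate the adaptors from the receptors. They were read from the GENCODE vM21 annotation of GRCm38, on the strand of the transcript and 5′ to 3′. Capitals mark the codons of each motif's tyrosines and the codon 3 places further on that completes each part.
Tyrobp: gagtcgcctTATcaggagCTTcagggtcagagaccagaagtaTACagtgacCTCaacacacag
Fcer1g: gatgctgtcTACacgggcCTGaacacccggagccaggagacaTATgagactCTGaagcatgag
Hcst: ggtagagtcTACatcaacATGcctggcaga
The Tyrobp bases lie in exons 4 and 5 of 5, at chr7:30415661-30417391 on the plus strand with the intron left out. Those of Fcer1g lie in exons 4 and 5 of 5, at chr1:171229880-171230081 on the minus strand, again without the intron. The Hcst bases lie in exon 4 of 4, at chr7:30417812-30417841 on the minus strand.

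An ITAM was searched in the translated coding sequence as a tyrosine followed 3 places on by leucine or isoleucine, then 6 to 8 residues and the same arrangement again. Tyrobp and Fcer1g each held 1 such pattern and Cd247 held 3, while Ncr1, Fcgr3 and Hcst held 0. The pattern was found in 2.89% of 21562 mouse genes with a coding sequence. Hcst held 1 tyrosine with methionine 3 places on, a looser pattern that 24.9% of those genes had.

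The members lie on chromosomes 7 and 1. Ncr1 spans chr7:4337724-4345164 on the plus strand, and Fcgr3 spans chr1:171051174-171064935 on the minus strand. Tyrobp (chr7:30413760-30417585, plus strand) and Hcst (chr7:30417712-30419854, minus strand) lie tail to tail as neighbours. Fcer1g spans chr1:171229572-171234365 on the minus strand, on the same chromosome as Fcgr3. The transcripts run to 1463 bases for Ncr1, 1347 for Fcgr3, 674 for Fcer1g, 564 for Tyrobp and 442 for Hcst.

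Fcgr3 was the member whose reads could be shared with another gene. Of its 1298 transcript windows of 50 bases, 12.8% were also found in Fcgr2b, which encodes the inhibitory IgG receptor, and none of the windows of the other 4 members was found in another gene. Part of this shared stretch is shown with its single different base in capitals.
Fcgr3: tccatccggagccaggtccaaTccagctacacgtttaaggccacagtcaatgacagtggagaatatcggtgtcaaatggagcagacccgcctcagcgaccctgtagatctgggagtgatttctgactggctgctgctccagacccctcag
Fcgr2b: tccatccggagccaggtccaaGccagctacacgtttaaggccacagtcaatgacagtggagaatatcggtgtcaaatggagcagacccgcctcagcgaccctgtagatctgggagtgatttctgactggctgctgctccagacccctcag
The Fcgr3 bases lie in exons 3 and 4 at chr1:171054168-171057814 and the Fcgr2b bases in exons 3 and 4 at chr1:170966675-170968103, both on the minus strand, and 99.3% of the 150 bases are identical. How the submitters' counting placed such reads is not given in the sources used here, so low Fcgr3 values are uncertain in cells that also hold Fcgr2b.

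The plates had similar depth. A median of 257266 reads per WT cell (range 1081 to 417719) and 272111 per PD-1-/- cell (1580 to 448102) was recovered from the steps of the RPKM values, and the median number of genes was 2264.5 and 2262.5. Fewer than 100000 reads were recovered in 31 WT and 19 PD-1-/- cells. Klrb1c, the gene of the sort marker NK1.1, was present in 96.1% of the WT and 97% of the PD-1-/- cells. At least 1 of Cd3d, Cd3e and Cd3g, the T cell receptor's signalling chains, was nevertheless present in 65 WT and 83 PD-1-/- cells. Among WT cells 20 of the 65 with a chain sat in plate rows A and B, as did 18 of the cells without a chain, while the PD-1-/- plate had 9 and 36 such cells in these rows. Pdcd1, which encodes PD-1, was present in 9 WT cells (2.50%) and 47 PD-1-/- cells (12.8%). Since the values sum over the whole gene and the knockout removes only part of it, they do not check the genotype, and directions below follow the plates' labels.

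NKp46, an activating receptor that defines NK cells in several species, was a common transcript. Ncr1 was absent from 33 WT cells (present in 90.8%, interval 87.4 to 93.6) and from 30 of the PD-1-/- plate (present in 91.8%, interval 88.5 to 94.4). Its RPKM ran from 0 through a median of 1143 to 6945 in WT, and from 0 through 1144 to 7222 in PD-1-/-. The medians of the plates thus nearly coincided, and the ranges overlapped over nearly their whole length. Where Ncr1 was present, the median cell held 568 recovered reads in WT and 588.5 in PD-1-/-. It rested on a single read in 11 WT and 16 PD-1-/- cells.

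CD16, the receptor through which NK cells kill antibody-coated targets, was the least often present. Fcgr3 was found in 35% of the WT cells (interval 30.1 to 40.2), and on the PD-1-/- plate this share was 30.6% (25.9 to 35.6). The median over all cells was 0 in both genotypes, and the highest value was 1149 RPKM in WT and 1030 in PD-1-/-. Fcgr3 was therefore detected in a minority of cells, and a value of 0 does not show that a cell lacked it. Its level was not faint where detected, since cells with it had a median of 309.4 RPKM in WT and 303.4 in PD-1-/-. Those cells held a median of 117.5 and 131.5 recovered reads. PD-1-/- cells with Fcgr3 had more genes than those without it (median 2460 against 2132), and WT cells differed less (2334 against 2217). The part of depth and of the number of genes in its presence was not tested.

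The other IgG receptors were rarer. Fcgr2b was present in 21 WT (5.83%) and 18 PD-1-/- cells (4.92%), and 6 of these 21 and 7 of these 18 also held Fcgr3. Fcgr1, Fcgr4, the IgE receptor chain Fcer1a and the neonatal Fc receptor Fcgrt were each in 3 cells or fewer per genotype. Fcgr3 thus had the most positive cells of these Fc receptor genes on both plates.

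DAP12 had the highest level of the 5. Tyrobp was absent from 7 WT cells (present in 98.1%, interval 96 to 99.2) and 21 PD-1-/- cells (present in 94.3%, interval 91.4 to 96.4). In WT its RPKM ran from 0 through a median of 4118 to 14146, and in PD-1-/- from 0 through 3440 to 10036. The PD-1-/- distribution lay lower and still overlapped the WT cells broadly.

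DAP10 was expressed at a lower level. Hcst was absent from 34 WT cells (present in 90.6%, interval 87.1 to 93.4) and 32 PD-1-/- cells (present in 91.3%, interval 87.9 to 93.9). Its RPKM had a median of 578 in WT and 586 in PD-1-/-, and the highest cell held 4540 and 4855. The medians lay close together and the ranges overlapped. Hcst has the shortest transcript, and a positive cell held a median of only 79.5 recovered reads in WT and 90.5 in PD-1-/-.

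The Fc receptor gamma chain was nearly universal. Fcer1g was present in every WT cell (interval 99 to 100) and absent from 1 PD-1-/- cell. Its RPKM ran from 115.6 through a median of 2608 to 8621 in WT, and from 0 through 2457 to 8519 in PD-1-/-. It was also the most even of the members over WT cells, with an SD of 0.507 times its mean, next to 0.520 for Tyrobp, 0.862 for Ncr1, 0.883 for Hcst and 1.84 for Fcgr3.

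**Figure D1:**
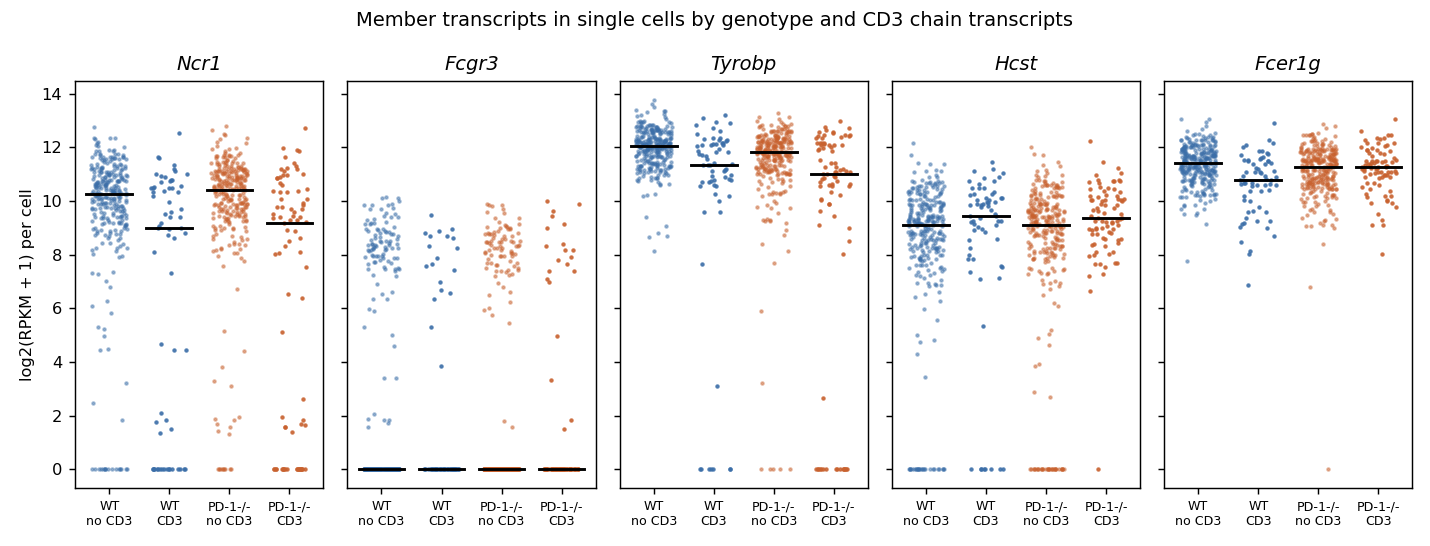
RPKM of Ncr1, Fcgr3, Tyrobp, Hcst and Fcer1g in each kept cell on a log2 scale of RPKM + 1, by genotype and by whether a CD3 chain transcript was present, with points for single cells and lines at the medians. The clouds overlap for every gene, and among cells without a chain the Tyrobp median lies at 4210 RPKM in WT and 3618 in PD-1-/-.

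Since RPKM is set per transcript length, levels can be ordered between genes within a cell. Tyrobp exceeded Fcer1g in 74.7% of the WT and 63.7% of the PD-1-/- cells. Fcer1g in turn exceeded Ncr1 in 83.1% and 77%, and Ncr1 exceeded Hcst in 71.1% and 69.4%. Hcst exceeded Fcgr3 in 82.5% and 85.5%. The order Tyrobp, Fcer1g, Ncr1, Hcst, Fcgr3 was thus that of most cells on both plates at each step, although the levels of neighbours overlapped.

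Receptor and adaptor transcripts were next set beside each other in the same cell. Every cell with Fcgr3, on either plate, also held Fcer1g, which CD16 needs to reach the cell surface. The same was true of every cell with Ncr1 except 1 on the PD-1-/- plate. Over all cells Fcer1g was present in 100% (WT) and 99.7% (PD-1-/-), so these overlaps were nearly fixed beforehand and show no pairing. Cd247, the alternative partner of NKp46, was less often present. Of the cells with Ncr1, 55.7% in WT and 54.5% in PD-1-/- held both Fcer1g and Cd247. Over all cells Cd247 was present in 56.1% and 55.2%, so its share among cells with Ncr1 was close to that of the whole plate.

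NKG2D signals through Hcst and, as an isoform found in mouse cells, also through Tyrobp. Of the cells with Klrk1, 92% in WT and 91.7% in PD-1-/- held Hcst, close to its shares of 90.6% and 91.3% over all cells. Either Hcst or Tyrobp was present in all of them in WT and in all but 2 in PD-1-/-. Tyrobp or Fcer1g, the ITAM adaptors among the members, was found in every cell but 1, which was PD-1-/-. All 3 adaptors together were present in 88.9% of the WT and 86.3% of the PD-1-/- cells.

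All 5 genes were present in 100 cells of either plate, which is 27.8% of WT (interval 23.2 to 32.7) and 27.3% of PD-1-/- (22.8 to 32.2). The most common pattern was all but Fcgr3, in 53.6% and 53%. Exactly 3 members were found in 10% of the WT cells, against 13.7% in PD-1-/-. Only 2 were present in 6 WT and 8 PD-1-/- cells, and 2 PD-1-/- cells had a single member.

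**Figure D2:**
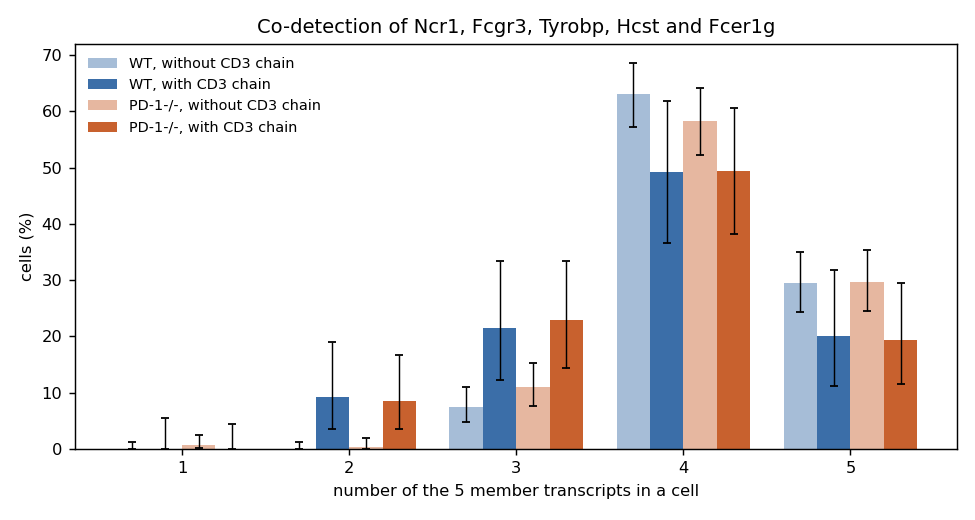
Percent of cells with 1 to 5 of the 5 genes present, for WT and PD-1-/- cells with and without CD3 chain transcripts, with Clopper-Pearson intervals. Cells without a chain held all 5 in 29.5% (WT) and 29.7% (PD-1-/-), and cells with a chain in 20% and 19.3%.

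In WT, pairs were found together about as often as the product of their shares gives. Ncr1 and Fcgr3 were both present in 31.1% of cells, where the product of their shares is 31.8%, and Tyrobp and Hcst in 88.9%, where it is 88.8%. Ncr1 was absent from 14 WT cells with Fcgr3 (present in 88.9%) and 19 without it (present in 91.9%). In PD-1-/- the order was the other way, with Ncr1 in 98.2% of cells with Fcgr3 and 89% without. Detection of NKp46 thus had no common direction with that of CD16 over the plates.

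Cells with a CD3 chain were compared with those without. The gate removed surface CD3, and these transcripts can occur in NK cells, so the chains divide the cells without naming a type. Other T-like genes were found more often in them than in the rest. At least 1 of Cd4, Cd8a, Cd8b1, Cd5, Cd6, Bcl11b and Themis was present in 32.3% of WT cells with a chain (21 of 65) and 5.08% without, and in 25.3% (21 of 83) and 5.30% on the PD-1-/- plate. At least 2 were present in 7 WT and 11 PD-1-/- cells with a chain and in 0 cells without, which allows shares of up to 1.02% and 1.06%. Their part in the differences below was not tested. Depth was similar, with medians of 246183 against 257816 reads in WT and 266885 against 277486 in PD-1-/-.

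Ncr1 was lower in cells with a chain on both plates. In WT it was absent from 17 of the 65 cells with a chain (present in 73.8%, interval 61.5 to 84) and from 16 cells without (94.6%, interval 91.3 to 96.9). In PD-1-/- it was absent from 21 of 83 (74.7%, interval 64 to 83.6) and from 9 cells without a chain (96.8%, interval 94 to 98.5). The mean was 881 against 1448 RPKM in WT and 904 against 1530 in PD-1-/-, which are log2 ratios (with 1 RPKM added) of -0.72 and -0.76. The highest WT cells reached 5917 RPKM with a chain and 6945 without, so the groups overlapped along the range and differed in how many cells were low or at 0. Without plate rows A and B, the WT share with a chain was 82.2% against 94.2% and the log2 ratio -0.31. The part of these rows in the WT difference was not tested, and without the same rows the PD-1-/- log2 ratio was -0.82.

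Tyrobp followed the same direction. In WT it was absent from 7 of the 65 cells with a chain (present in 89.2%, interval 79.1 to 95.6) and from 0 cells without (interval 98.8 to 100). In PD-1-/- it was absent from 16 of 83 (80.7%, interval 70.6 to 88.6) and from 5 cells without a chain (98.2%, interval 95.9 to 99.4). Mean RPKM was 3114 against 4476 in WT and 2542 against 3667 in PD-1-/-, log2 ratios of -0.52 and -0.53. Without plate rows A and B the ratios were -0.35 in WT and -0.47 in PD-1-/-, and in rows I to P -0.29 and -0.64.

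Cells without Tyrobp all had a chain or few reads. All 7 such WT cells held a CD3 chain, as did 16 of the 21 such PD-1-/- cells, and the other 5 had fewer than 100000 recovered reads. Among cells with at least 100000 reads and no chain, Tyrobp was absent from 0 cells on either plate. The 21 PD-1-/- cells without Tyrobp held Klrb1c in 19, Hcst in 18 and Ncr1 in 13. The NK-like gene Eomes was in 5 of them, against 57.1% of PD-1-/- cells with Tyrobp. The T-like genes Cd5, Cd8a and Cd4 were in 5, 4 and 1 of them, against 0.58%, 0.87% and 0.87%. The rest of the T-like list was not read in these cells. Among PD-1-/- cells with a chain, Eomes was in 3 of 16 without Tyrobp, against 49.3% with it. Among the same cells Cd5, Cd8a and Cd4 were in 5, 4 and 1 of 16, against 2.99%, 2.99% and 1.49%. Of the 7 WT cells without Tyrobp, 6 held Hcst, 4 Klrb1c, 4 Ncr1, 2 Eomes, 2 Cd8a, 0 Cd5 and 0 Cd4.

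Fcgr3 lay in the same direction within overlapping intervals, whereas Fcer1g and Hcst did not share it on both plates. Fcgr3 was present in 29.2% of WT cells with a chain against 36.3% without and in 25.3% against 32.2% in PD-1-/-, with means of 80.5 against 134.8 RPKM and 85.1 against 111.1. The intervals of its shares overlapped (18.6 to 41.8 against 30.8 to 42 in WT). Fcer1g had a mean of 2039 against 2934 RPKM in WT (log2 ratio -0.52) but 2705 against 2587 in PD-1-/- (0.06), and it was present in every cell with a chain. Hcst had a higher mean with a chain on both plates, 818 against 673 RPKM in WT and 878 against 678 in PD-1-/-. Its share was 87.7% against 91.2% in WT and 98.8% against 89% in PD-1-/-, so in WT share and level pointed opposite ways and no order was read. Among cells with at least 100000 reads the Hcst share was 93.1% against 92.6% in WT and 100% against 90.6% in PD-1-/-.

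**Figure D3:**
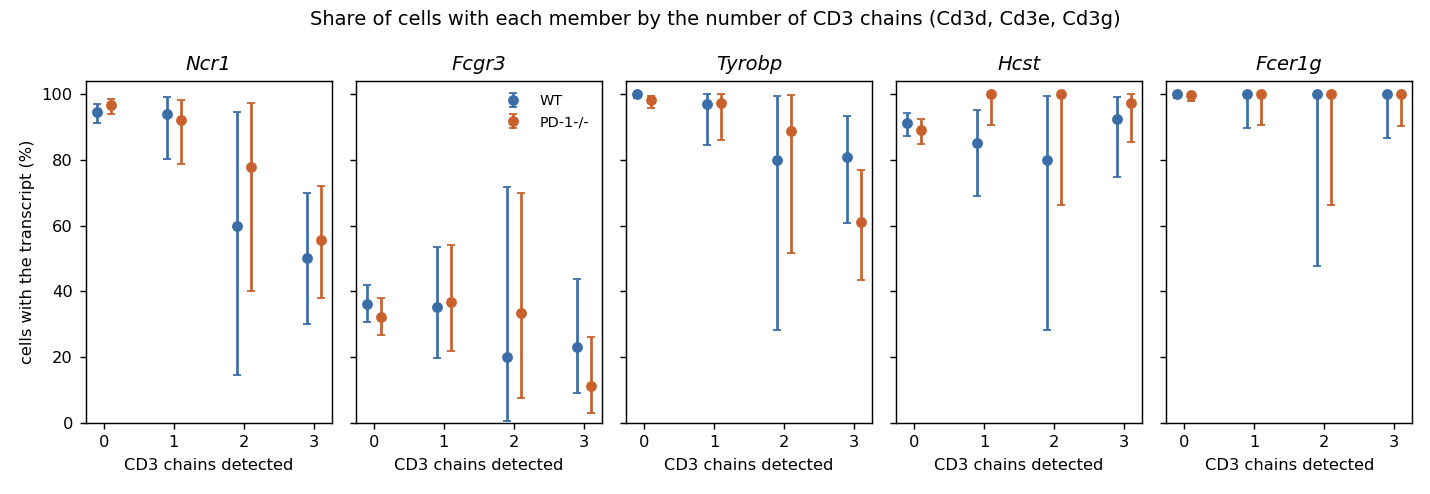
Percent of cells with each gene present, by the number of CD3 chains (0 to 3) in the cell, for WT and PD-1-/- cells of all plate rows, with Clopper-Pearson intervals. Ncr1 goes from 94.6% at 0 chains to 50% at 3 chains in WT and from 96.8% to 55.6% in PD-1-/-, while Fcer1g stays at or near 100%.

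The differences lay in cells with several chains. Ncr1 was present in 94.1% of the 34 WT cells with 1 chain, close to cells with none, and in 13 of 26 (50%) with all 3. In PD-1-/- it was present in 92.1% of 38 cells with 1 chain and in 20 of 36 (55.6%) with 3. Its median was 1312 RPKM at 1 chain and 0.786 at 3 chains in WT, and 1075 and 2.15 in PD-1-/-. These values cover all plate rows. Of the 28 WT cells with Cd3e, 16 lay in rows C to P and the rest in rows A and B. The part of rows A and B in the values by chain number was not tested. Of the 3-chain cells with Ncr1, 9 WT and 14 PD-1-/- cells held it at 10 or more reads, so NKp46 and all 3 chains were read well in some of the same wells. Conversely, a CD3 chain was present in 12.9% of the WT and 17% of the PD-1-/- cells with at least 10 Ncr1 reads, and in 17 of 33 and 21 of 30 cells with 0.

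Tyrobp was present in 97.1% of WT cells with 1 chain and 80.8% with 3, and in 97.4% and 61.1% in PD-1-/-. Its median went from 4307 to 1699 RPKM between 1 and 3 chains in WT and from 3512 to 618 in PD-1-/-. Fcgr3 was present in 23.1% of the WT cells with 3 chains and in 11.1% of those of the PD-1-/- plate. Hcst was present in 92.3% and 97.2% of them and Fcer1g in all. Cells with all 3 chains thus had Fcer1g and Hcst about as often as the rest and Ncr1, Tyrobp and Fcgr3 in a smaller share, with 26 and 36 cells behind these values.

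These ratios were read against the whole table. A gene was counted as higher or lower from a 1.5-fold ratio of means, provided that its mean reached 10 RPKM and its share of cells 20% in either group. With against without a chain in WT, 11.5% of 4378 genes were higher and 9.43% lower by this measure, and of the 5 members 2 were lower (Ncr1 and Fcgr3) and 0 higher. Neither reached 1.5-fold in WT rows I to P alone, where the log2 ratio was -0.27 for Ncr1 and -0.40 for Fcgr3, and Ncr1 did not reach it without rows A and B either (-0.31). In PD-1-/- 7.57% of 4175 genes were higher and 8.07% lower, and Ncr1 alone of the members was lower, in rows A to H (-0.69) and I to P (-0.80) too. The median log2 ratio of the members was -0.52 in WT and -0.38 in PD-1-/-, beside 0.01 and 0.02 over all genes compared.

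Between the genotypes no member differed by 1.5-fold in mean RPKM. In all kept cells 1.78% of 3999 genes were higher and 1.8% lower in PD-1-/-, with 0 members in either set. Without chain-bearing cells 2.92% of 4009 genes were higher and 2.39% lower, again with 0 members. The PD-1-/- over WT log2 ratio was 0.04 for Ncr1, -0.25 for Fcgr3, 0.05 for Hcst and -0.08 for Fcer1g. The median over the members was -0.08, beside -0.01 over all genes.

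Tyrobp had the ratio farthest from 0 of the 5, at percentile 10.8 of the log2 ratios of all genes compared. Its mean was 4231 RPKM in WT and 3412 in PD-1-/- (log2 ratio -0.31), and 4476 against 3667 (-0.29) in cells without a chain. With a chain the ratio was -0.29 as well. As a difference of mean log2(RPKM + 1), on which cells at 0 weigh more, it was -0.76 in all kept cells, past 1.5-fold, and -0.55 without a chain. In plate rows A to H the log2 ratio of means was -0.28 and in rows I to P -0.34. The PD-1-/- mean was below the WT mean in 15 of the 16 rows of the same letter. Such rows pair nothing between the plates and divide the same 2 pools, so they are not replicates. Row means nevertheless overlapped, from 2774 to 5250 RPKM in WT and from 2367 to 4244 in PD-1-/-. With 1 plate per genotype, the difference is that between these 2 plates and not a tested difference of genotype.

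The row counts of the other members, equally without pairing, were more even. The PD-1-/- mean was below WT in 6 of 16 rows for Ncr1, 8 for Hcst, 10 for Fcgr3 and 10 for Fcer1g. Ncr1 row means ran from 685 to 1618 RPKM in WT, with rows A (685) and B (970) among the lowest, and from 976 to 1657 in PD-1-/-. In cells without a chain Fcer1g had a mean of 2934 RPKM in WT and 2587 in PD-1-/- (log2 ratio -0.18).

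**Figure D4:**
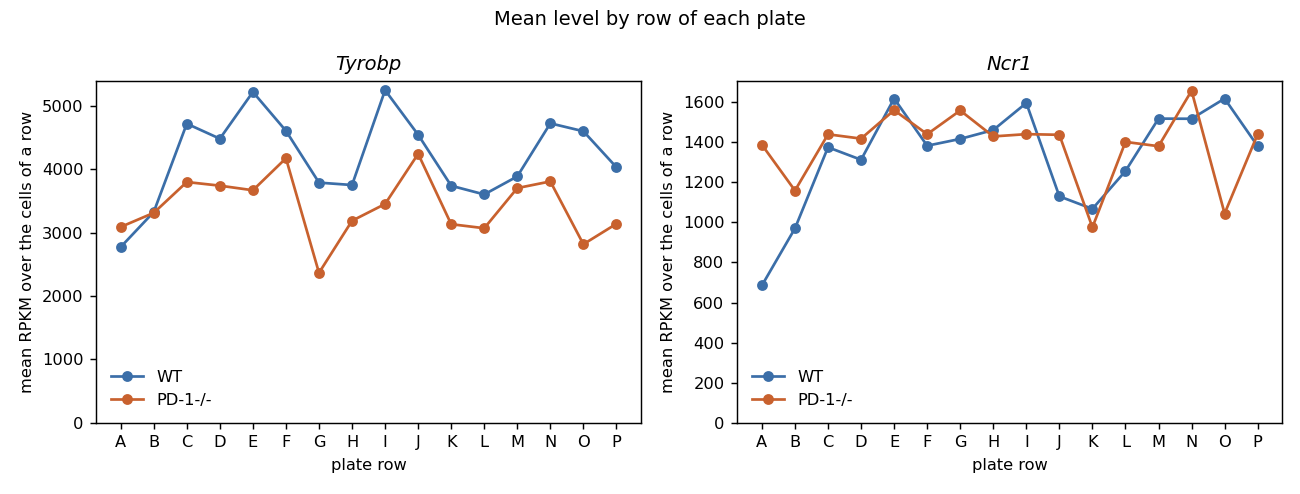
Mean RPKM of Tyrobp and Ncr1 over the cells of each plate row (A to P) in WT and PD-1-/-, 1 point per row. The Tyrobp mean of the PD-1-/- plate lies under that of the WT plate in 15 of 16 rows, while the Ncr1 lines cross several times. Rows of the same letter are not paired and are not replicates.

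The receptors that work beside or through these adaptors were also read. Klrk1 was present in 96.7% (WT) and 98.4% (PD-1-/-) of the cells and Klrc2 (NKG2C, a Tyrobp partner) in 55.3% and 54.6%. Klra8 (Ly49H, a Tyrobp partner in C57BL/6 mice) was present in 11.4% and 8.20%, and Klra4 (Ly49D) was listed at 0 in every cell. How reads of the closely related Ly49 genes were assigned is not given in the sources used here, so no share of cells was read from this 0. With Klrb1c, Cd160 and Cd244 this list had 7 genes, of which 5 entered the comparisons, and none differed by 1.5-fold between genotypes (median log2 ratio 0.09).

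With a chain, Cd160, a receptor held by a lipid anchor, was higher on both plates (log2 ratio 1.23 in WT and 1.41 in PD-1-/-). Klrb1c (-0.72) and Klrc2 (-0.60) were lower in WT, and their ratios in PD-1-/- were -0.31 and -0.07. The direction of the Klrb1c ratio was that of Ncr1 and Tyrobp on both plates, and the size was below 1.5-fold in PD-1-/-.

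The cascade below the ITAM was represented by 25 genes, of which 21 entered the comparisons. Between genotypes none was higher or lower by 1.5-fold, and their median log2 ratio was 0.01. The proximal kinases Lck and Fyn were present in 91.1% and 72.8% of WT and in 89.9% and 70% of PD-1-/- cells. Zap70, which binds the phosphorylated ITAM, was present in 60.8% (WT) and 67.5% (PD-1-/-), and Syk, which does the same, in 25.3% and 25.7%. Zap70 transcripts were thus detected in more cells than Syk transcripts on both plates.

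With against without a chain in WT, 1 cascade gene was higher (Lat, the scaffold of T cell receptor signalling, log2 ratio 0.77) and 3 were lower. The lower genes were Plcg2, the phospholipase below Syk (-0.94), Sh2d1b1, the adaptor EAT-2 (-0.89), and Lat2, a relative of Lat (-0.68). In PD-1-/- Zap70 was higher (0.62), and 5 genes were lower, namely Syk (-1.27), Pik3r1 (-0.75), Sh2d1b1 (-0.70), Fyn (-0.67) and Plcg2 (-0.66). The WT ratio of Zap70 was -0.30, the other way, and those of Syk (-0.13), Pik3r1 (-0.33) and Fyn (-0.10) were below 1.5-fold. Lat (0.41) and Lat2 (-0.39) did not reach 1.5-fold in PD-1-/-. Over all genes compared, 11.5% were higher and 9.43% lower in WT, and 7.57% and 8.07% in PD-1-/-. The part of plate rows A and B in these ratios was not tested. Syk was present in 10.8% of PD-1-/- cells with a chain and 30% without. The medians over the 21 genes, -0.02 in WT and -0.07 in PD-1-/-, lay near that of all genes. Plcg2 and Sh2d1b1 were lower on both plates, as Ncr1 was.

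**Figure D5:**
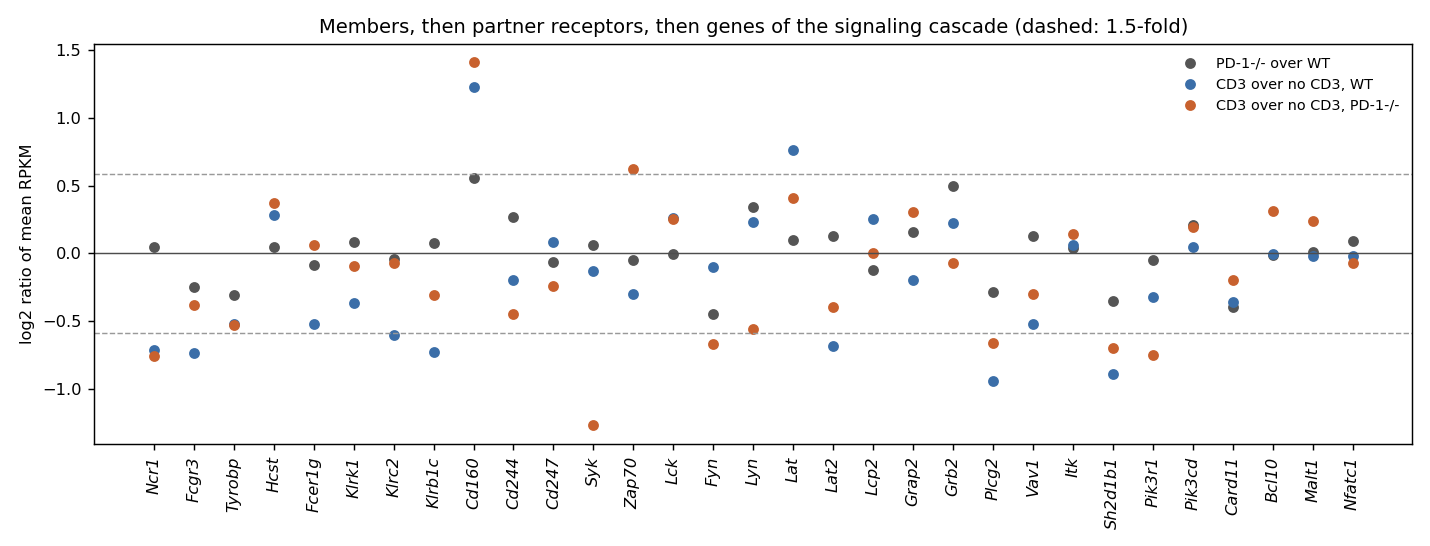
Log2 ratios of mean RPKM for the 5 genes, the partner receptors and the ITAM cascade, for PD-1-/- over WT and for cells with over cells without CD3 chains in each genotype, 1 point per gene with dashed lines at 1.5-fold. All points of the genotype comparison lie within the lines, and Ncr1 lies below them in both chain comparisons over all plate rows, although in WT its ratio without rows A and B was -0.31.

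Tyrobp and Fcer1g are also myeloid transcripts, so partners of Tyrobp on myeloid cells were looked for. At least 1 of Trem1, Trem2, Clec5a, Siglech, Sirpb1a, Cd300lb and Cd300ld was present in 10 WT and 4 PD-1-/- cells. Myeloid-like genes of a list of 5 found in the table were present in 47 WT and 26 PD-1-/- cells, mostly as Lyz2 (5% and 2.46%) or Cd68 (6.39% and 3.28%). At least 1 mast-like gene was present in 12 and 7 cells, a neutrophil-like gene in 7 and 5, a B-like gene in 5 and 6 and a fibrosarcoma-like gene in 21 and 11. All these lists were found in far fewer cells than Tyrobp or Fcer1g, and their part in the values above was not tested.

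For each member the genes with the most similar levels over the 726 cells were sought among 3996 genes present in at least 20% of them, by Spearman correlation of RPKM. The cells share plates, depth and pools, and the values are descriptive. For Ncr1 these were Tyrobp (0.30), Pfn1 and Actb (both 0.25), and for Tyrobp they were Ncr1 (0.30), Prf1, which encodes perforin (0.26), and Fcer1g (0.24). For Fcer1g they were the granule genes Gzma (0.29), Prf1 (0.25) and Nkg7 (0.24). For Hcst they were the chemokine gene Ccl5 (0.20), Klrk1 (0.15) and Gimap1 (0.13), and for Fcgr3 they were Atp8b4, Prkacb and Sh2d1a (all 0.16). All were weak, and in cells without a chain the correlation of Ncr1 with Tyrobp was 0.18.

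Within cells without a chain, 8 genes of NK maturation and state were set beside the members, and the values given here were chosen among them after they were seen. With Itgam (CD11b), a marker of mature NK cells, Ncr1 was present in all 58 WT and all 66 PD-1-/- cells, against 93.2% and 95.9% without Itgam. With Klrg1, another late marker, it was present in 46 of 46 and 62 of 63, against 93.6% and 96.4% without Klrg1. Of these share differences of Ncr1, only that by Itgam in WT had a 95% interval (Newcombe's method) that left out 0, from 0.04 to 10.7 points. Fcgr3 had no common direction with Itgam, at 41.4% against 35% in WT and 24.2% against 34.6% in PD-1-/-. With Mki67, a marker of cycling cells, mean Tyrobp was 3683 against 4507 RPKM in WT and 2640 against 3767 in PD-1-/-, from 11 and 25 cells with Mki67. With Ifng, Hcst was present in 73 of 74 WT cells against 88.7% of those without it, and in 84 of 90 PD-1-/- cells against 87%.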

How the data were processed

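The authors deposited 1 table of RPKM values per plate, with a gene entry per line and a well per column. The submitters' processing notes name TopHat, Cufflinks and the builds mm9 and mm10 without giving their roles, and whether reads were counted by strand is not given in the sources used here. From these values whole reads were recovered where a gene's low values in a cell are multiples of what 1 read is worth. This held for 9147 genes carrying 82.1% of all RPKM, and 99.7% of their judged values lay within 0.01 of a whole read. Each cell's depth is the sum of its recovered reads. Wells outside 1000 to 3500 genes were left out (42 in all), which also stood in for the removal of doublets, and no doublet caller was run.

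Genotypes came from the labels. Shares of cells and log2 ratios of mean RPKM with 1 RPKM added were computed with scipy 1.17.1, pandas 2.3.3 and numpy 2.4.6 under Python 3.11.15, and plots were drawn in matplotlib 3.10.9. The ratio was checked on simulated data. With 1 pool per genotype no test was made, and cells were not used as replicates. The members, gene lists and measures were chosen with earlier results of these data known. Genes named were the members, the CD3 chains, the fixed lists and, for each member, the 3 genes with the highest correlation. Alternatives were other gene limits, thinning to 100000 reads, another pseudocount, fold, filter, presence limit or number of chains, and parts of the plate.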

Additional observations from a re-analysis of the deposited data

Results flagged for a closer look

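The share of cells with Hcst and the level of Fcer1g differed in opposite directions between cells with and without a CD3 chain on the plates, and the difference between the plates was not tested. For Hcst the share of cells with a chain minus that without was -3.49 points in WT and 9.75 points in PD-1-/-. In cells with at least 100000 recovered reads the WT shares were 93.1% and 92.6%, and mean Hcst RPKM was higher with a chain on both plates (log2 ratios 0.28 and 0.37). For Fcer1g the log2 ratio of mean RPKM, with over without a chain, was -0.52 in WT and 0.064 in PD-1-/-.

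The wells left out of the comparisons also held the members. Of the 30 wells with more than 3500 genes, which are outside the kept range, Tyrobp and Fcer1g were each present in 100%, Hcst in 93.3%, Ncr1 in 86.7% and Fcgr3 in 30%. A CD3 chain was present in 10 of these wells. Of the 12 wells with fewer than 1000 genes, Fcer1g was present in 66.7%, Tyrobp in 41.7% and Ncr1 in 33.3%. These wells had a median of 471.5 recovered reads, and Fcgr3 and Hcst were present in 0 of them.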

How the results depend on the processing

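Of 524 member values computed under an alternative, 492 stayed within the spread set for them and 32 moved. A log2 ratio stayed if it shifted by less than 1.5-fold, and a share or share difference if it fell inside its reported interval. A ratio could thus stay and still lose its 1.5-fold call, as those of Ncr1 and Fcgr3 by chain in WT did in rows I to P. Of the 428 differences among them, 41 had another sign or were 0. Of the 7 share differences whose interval left out 0, this befell 1 value, that of Tyrobp between genotypes in thinned cells without a chain. Share differences are in points of percent and ratios are log2 ratios of mean RPKM. No paired analysis was possible because each genotype is 1 pool on 1 plate and well numbers pair nothing. Cells with at least 2 CD3 chains were also compared with cells without a chain, leaving out those with 1. Ncr1 then differed by -43.0 points and -1.91 in WT and by -36.8 points and -1.68 in PD-1-/-. Fcgr3 differed by -1.40 and -1.77, and Tyrobp by -1.20 in WT and by -31.6 points in PD-1-/-. With means of log2(RPKM + 1) the chain ratios of Ncr1 were -2.94 (WT) and -3.11 (PD-1-/-), those of Tyrobp -1.82 and -2.39, and that of Hcst in PD-1-/- 1.21, and the genotype ratio of Tyrobp was -0.76 against -0.31 as reported. The WT chain ratio of Fcgr3, -0.74 as reported, was -0.46 with all wells, -0.49 with 1500 to 3000 genes and -0.40 in rows I to P, all short of 1.5-fold. Tyrobp and Fcer1g passed it by chain under some alternatives, with lowest values in WT of -1.82 and -0.84. With presence set at 10 reads, chosen after seeing the data, the chain difference was -34.6 points for Ncr1 and 14.5 for Hcst in PD-1-/-, and 4.89 for Hcst and 1.36 for Fcer1g in WT. The Hcst share difference in WT was also above 0 with 1500 to 3000 genes (4.45) and in rows I to P (9.55), where that of Ncr1 was -10.9. The PD-1-/- minus WT share of Ncr1 was 5.82 points in the upper plate rows, A to H, but -3.85 in the others. After thinning to 100000 reads, that of cells without a chain was -1.65 for Ncr1 and 0 for Tyrobp (-1.77 as reported). At 2-fold, 0.275% of genes were higher and 0.150% lower between genotypes, 0.249% and 0.150% without chain-bearing cells, 3.08% and 2.56% by chain in WT and 1.75% and 2.25% in PD-1-/-. With no filter beyond detection in 3 wells these were 8.91% and 11.5%, 12.1% and 10.7%, 24% and 17.5%, and 13.6% and 19.8%. The causes were not tested. With 65 and 83 chain-bearing cells and 1 plate per genotype, differences of a few points could not be read, and genotype, mouse pool and plate cannot be told apart.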
